A study of Arabidopsis thaliana with 10 samples.

Results

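Seedlings with an excess of the transcription factor BEH2 were set directly against seedlings with an excess of its relative BZR1, gene by gene and without passing through the wild type. The comparison covers the protein-coding genes that reached at least 1 FPKM (sequenced fragments per kilobase of transcript and per number of fragments mapped) in the higher of the 2 lines. These were 19585 of 27560 protein-coding genes (71.1%), out of 38303 genes in the deposited tables, and the 7975 others stayed under the floor in both lines. Just outside the floor stood AT2G40720, with 0.9999 FPKM in BZR1-YFP and 0.653 in BEH2-YFP, and just inside it AT3G10590, with 1.00 and 0.442 FPKM.

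The study sequenced messenger RNA of whole 12-day-old Arabidopsis thaliana seedlings in 10 libraries, in 5 groups of 2, and asked whether BZR1 and BEH2 act on different genes. The BEH2-YFP and the BZR1-YFP seedlings are in the Columbia background and express the named factor, fused to yellow fluorescent protein, from the 35S promoter, which is active in nearly all plant tissues. Untreated Columbia (Col-0) seedlings stood beside them, all grown at 23 °C in 16 h of light and 8 h of dark. A separate experiment gave Col-0 seedlings either a mock treatment or 100 nM brassinolide for 6 h; its control is called mock here after the treatment protocol, while the sample titles call it non-treatment. How many independent transformants each line represents is not given in the sources used here. Each line is therefore described as it was deposited, by 1 value per gene that pools 2 libraries, so the spread between replicates and the depth of each library cannot be shown. In whole seedlings a change in the number of cells of a type and a change in RNA per cell cannot be told apart.

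Brassinosteroids are plant growth hormones. They are sensed at the cell surface by the receptor kinase BRI1, and the signal ends in the nucleus with a small family of transcription factors made up of BZR1, BES1 and BEH1 to BEH4. With little hormone these proteins are phosphorylated and kept inactive, and with the hormone they accumulate in the nucleus, activate growth genes and repress the genes of brassinosteroid synthesis. BZR1 is known to bind the G-box, CACGTG, and the brassinosteroid response element, whose core is CGTGNG.

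The fold given below is the ratio of the 2 FPKM values. Errors written after ± are standard errors of the log2 difference, derived from the authors' test statistics of each line against Col-0. A gene is called higher in a line when this difference passed a two-sided normal test with an adjusted p under 0.05 (Benjamini and Hochberg, over all 22336 genes tested). The error of Col-0 enters it through both statistics although the Col-0 level cancels. The errors rest on the spread that Cuffdiff, the authors' program, modelled, and not on values per library. The smallest p-value in the deposited tables was 5e-05, so adjusted p-values are printed only for genes near the threshold, where they do not extrapolate far beyond what the tables resolve.

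Before the genes, 4 promoter windows show what the motif counts further on refer to. They run from 250 bases before to 50 bases after the annotated start of the gene, read 5′ to 3′ along the gene, from the RefSeq genome of TAIR10.1. Capitals mark CACGTG and CGTGNG on either strand, and the motifs may overlap. The windows belong to DIN11 and NUDT21, which were higher in BZR1-YFP, and to DFR and UF3GT, which were higher in BEH2-YFP. They were picked after the values were seen, because both directions occurred with G-boxes inside the window.
DIN11, chr3:18393497-18393796, plus strand: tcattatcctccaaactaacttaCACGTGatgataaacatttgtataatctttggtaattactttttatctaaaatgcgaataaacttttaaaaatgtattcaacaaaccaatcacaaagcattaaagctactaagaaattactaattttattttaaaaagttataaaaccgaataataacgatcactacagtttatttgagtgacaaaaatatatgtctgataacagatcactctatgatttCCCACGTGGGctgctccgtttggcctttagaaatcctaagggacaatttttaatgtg
NUDT21, chr1:27646694-27646993, minus strand: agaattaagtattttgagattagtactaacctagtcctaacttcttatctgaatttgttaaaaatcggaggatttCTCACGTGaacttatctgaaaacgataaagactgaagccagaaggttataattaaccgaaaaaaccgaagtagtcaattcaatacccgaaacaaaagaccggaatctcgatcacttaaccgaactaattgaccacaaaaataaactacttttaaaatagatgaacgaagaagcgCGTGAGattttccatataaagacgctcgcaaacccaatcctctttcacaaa
DFR, chr5:17165983-17166282, minus strand: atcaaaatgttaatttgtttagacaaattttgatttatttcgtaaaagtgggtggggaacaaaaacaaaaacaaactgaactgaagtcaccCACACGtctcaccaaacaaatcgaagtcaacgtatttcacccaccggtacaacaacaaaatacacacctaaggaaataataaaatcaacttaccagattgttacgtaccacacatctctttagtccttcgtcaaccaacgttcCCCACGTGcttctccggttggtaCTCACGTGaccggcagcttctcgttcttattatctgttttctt
UF3GT, chr5:21938347-21938646, minus strand: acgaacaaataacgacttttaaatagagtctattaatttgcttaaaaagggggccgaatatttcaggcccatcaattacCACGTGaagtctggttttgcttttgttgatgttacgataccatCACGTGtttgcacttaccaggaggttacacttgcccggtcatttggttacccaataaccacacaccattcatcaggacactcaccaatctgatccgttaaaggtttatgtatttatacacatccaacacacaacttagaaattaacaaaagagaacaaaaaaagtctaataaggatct
The DIN11 window holds 2 matches of CACGTG and 2 of CGTGNG, the NUDT21 window 1 and 2, the DFR window 2 and 3, and the UF3GT window 2 and 0.

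Across the protein-coding genes the 2 lines were close to each other, and the genes that differed were more often higher in BEH2-YFP. The median log2 ratio of BEH2-YFP over BZR1-YFP, with 0.5 FPKM added to each value, was 0.0009, and the quartiles were -0.22 and 0.19. On that scale 866 genes (4.42%) were at least 2-fold apart: 564 (2.88%) were higher in BEH2-YFP and 302 (1.54%) higher in BZR1-YFP. Over all 22336 genes tested, 2.31% were called higher in BEH2-YFP and 1.28% higher in BZR1-YFP. Among the 19519 members that could be tested, 507 (2.6%) were called higher in BEH2-YFP and 272 (1.39%) higher in BZR1-YFP. These 779 genes (3.99%) had a median fold of 2.62 in the first direction and 2.56 in the second, and the smallest fold called was 1.71. The count depends on how the error is built: it was 2168 if the 3 groups are taken to vary equally, and 211 if the deposited statistic is read as a normal deviate without rescaling. Of 156 called genes picked for naming or for the sets below, 76 were called without the rescaling. The paragraphs below name many of the calls that ended or give their count, though not for every list.

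**Figure D1:**
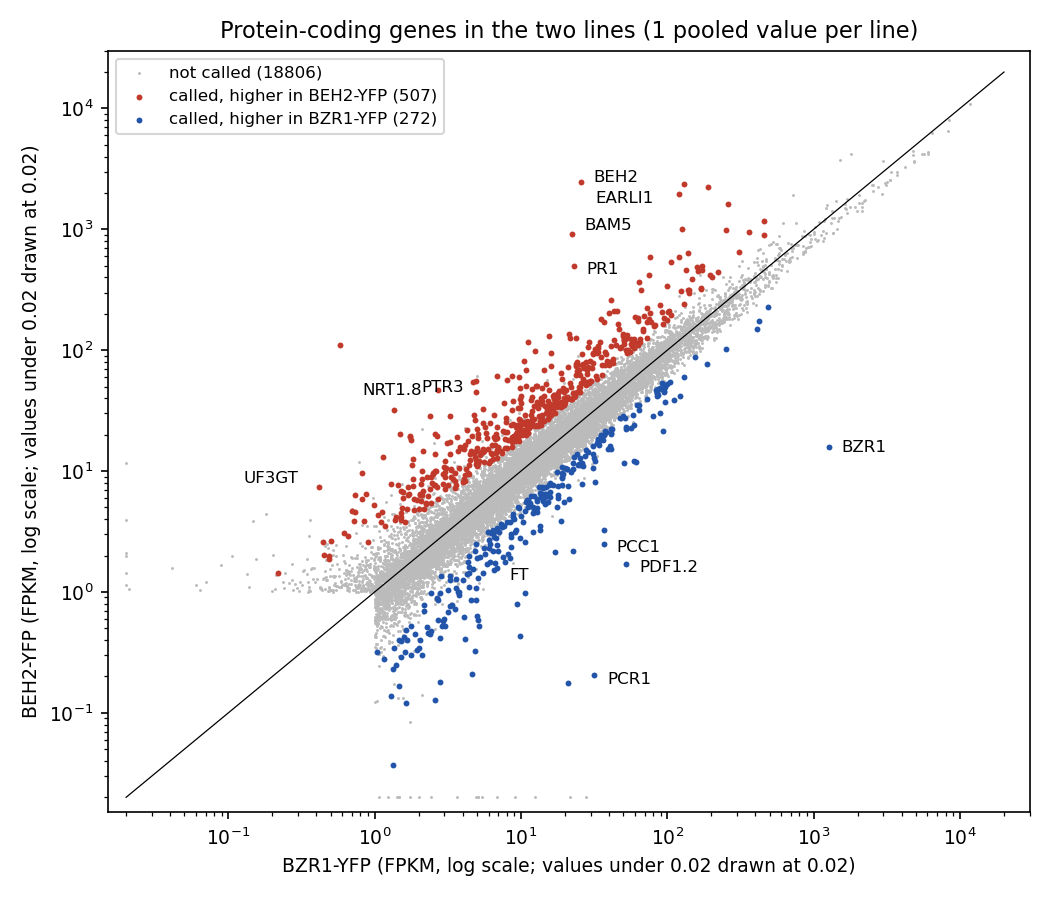
FPKM of each of the 19585 genes in BZR1-YFP (horizontal, log scale) and BEH2-YFP (vertical, log scale), 1 pooled value per line, with the line of equality; red and blue points are the 507 and 272 called genes. The empty corner at the lower left is the floor of 1 FPKM, and BEH2 and BZR1, the genes on the transgenes, stand far from the line on opposite sides.

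The direction of the calls varied with the level of the gene. This level is that of the higher line, so it is not independent of the difference. Among 1277 genes of 100 FPKM or more in the higher line, 104 were called higher in BEH2-YFP and 12 higher in BZR1-YFP. Among 4531 genes between 1 and 5 FPKM the order was the other way, with 28 and 72. Genes at least 2-fold apart, called or not, were more even there, with 120 higher in BEH2-YFP and 134 higher in BZR1-YFP. At 100 FPKM or more they numbered 89 and 9. The median standard error was 0.26 for the first of these groups and 0.48 for the second, and 9.08% and 2.21% of their genes were called. In BEH2-YFP the 507 genes held 6.63% of the summed FPKM of all members, against 1.93% in BZR1-YFP and 1.60% in Col-0. The 10 highest of them, led by BEH2, EXT4, PRXCB and EARLI1, held 2.104%, against 0.261% in BZR1-YFP. The 272 genes higher in BZR1-YFP held 1.21% there and 0.447% in BEH2-YFP.

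Both transgenes were found in the line that should carry them. BEH2 (AT4G36780) stood at 25.8 FPKM in Col-0, 25.7 in BZR1-YFP and 2477 in BEH2-YFP. BZR1 (AT1G75080) stood at 13.8 in Col-0, 15.7 in BEH2-YFP and 1265 in BZR1-YFP. Reads of the transgene and of the gene itself cannot be told apart in these values, and the lines thus differ in the level of the factor as well as in its identity.

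Of the other 4 family members, 1 was called. BES1, the closest relative of BZR1, stood at 112 FPKM in Col-0, 140 in BZR1-YFP and 296 in BEH2-YFP, 2.12-fold higher in BEH2-YFP than in BZR1-YFP (log2 1.08 ± 0.29, adjusted p = 0.00917 in the difference test). BEH1 stood at 19.99 FPKM in BZR1-YFP and 12.8 in BEH2-YFP (adjusted p = 0.249). BEH3, with 8.59 and 7.94 FPKM, and BEH4, with 12.0 and 11.1 FPKM, were not called either.

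The enzymes that make brassinosteroids were called in 1 direction only. Of 10 tested, 2 were higher in BZR1-YFP and 0 higher in BEH2-YFP. DWF4, the rate-limiting hydroxylase (AT3G50660), stood at 6.91 FPKM in Col-0, 4.82 in BZR1-YFP and 2.17 in BEH2-YFP, a 2.22-fold difference between the lines (log2 -1.15 ± 0.33, adjusted p = 0.0157). CYP90D1, another cytochrome P450 of the pathway, stood at 4.91, 3.17 and 1.03 FPKM in the same order, 3.07-fold apart (log2 -1.62 ± 0.39). In both genes BZR1-YFP lay between Col-0 and BEH2-YFP. CPD stood at 96.1 FPKM in BZR1-YFP and 74.3 in BEH2-YFP (adjusted p = 0.84), and BR6OX2 and ROT3, with 11.7 and 8.37 FPKM and with 8.37 and 10.8 FPKM, were not called. Among 7 inactivating enzymes BAS1, a hydroxylase of active brassinosteroids, was higher in BEH2-YFP, with 11.5 FPKM against 4.94 (2.33-fold, log2 1.22 ± 0.31, adjusted p = 0.0038). The calls of DWF4, CYP90D1 and BAS1, and that of BES1 above, ended without the rescaling. Of 7 signalling genes of the pathway (receptors, kinases and the inhibitor BKI1), 12 bHLH factors of growth and 10 clock genes, 0 were called.

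The 15 largest differences toward BEH2-YFP, under a rule on symbol and level, began with the transgene itself and 3 genes of unlike function. BAM5, a beta-amylase, stood at 12.9 FPKM in Col-0, 22.4 in BZR1-YFP and 909 in BEH2-YFP, 40.6-fold higher than in BZR1-YFP (log2 5.34 ± 0.30). PR1, the marker of salicylate defence, stood at 15.2, 23.0 and 500.1 FPKM, 21.8-fold higher (log2 4.44 ± 0.30). EXT4, an extensin of the cell wall, stood at 135, 129 and 2350 FPKM, 18.18-fold higher (log2 4.18 ± 0.35). In these 3 genes BZR1-YFP was within 2-fold of untreated Col-0 and BEH2-YFP stood apart from both. XTH11, a wall-modifying enzyme, went from 1.35 FPKM in BZR1-YFP to 31.7 in BEH2-YFP, and NRT1.8, a nitrate transporter that unloads xylem sap, from 2.70 to 46.4 (17.2-fold, log2 4.10 ± 1.11, adjusted p = 0.00912). The error of NRT1.8 was the widest of the 15, and its call ended without the rescaling. The others were PRXCB and PA2, class III peroxidases, EARLI1, DXPS1, BGLU45, LAS1, a lanosterol synthase, AIL7, UF3GT and PTR3, a peptide transporter. Without a symbol and outside the naming rule, AT3G01345 (annotated only as an expressed protein) differed more than any of these, with 0.275 FPKM in Col-0, 0.58 in BZR1-YFP and 110 in BEH2-YFP, 190-fold apart (log2 7.57 ± 0.73); it was picked after its values were seen.

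**Figure D2:**
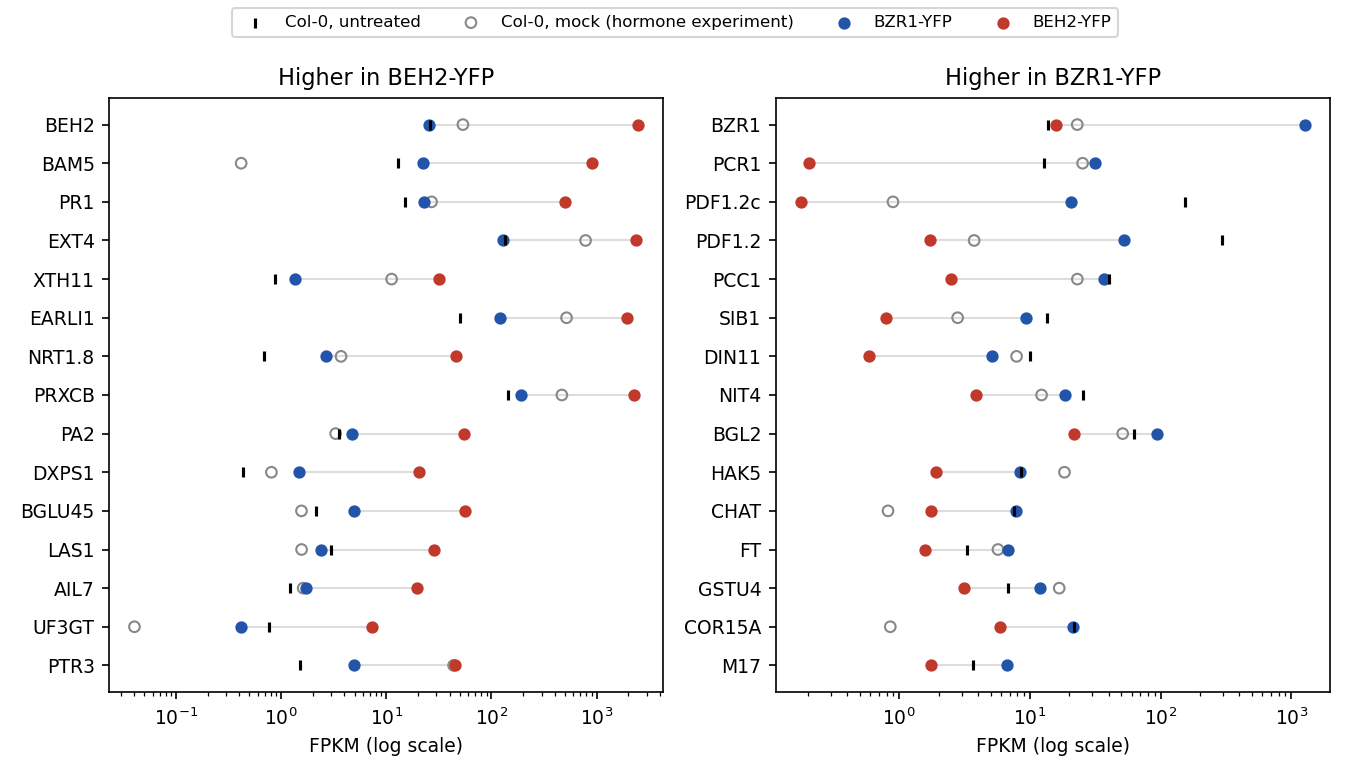
FPKM (log scale) of the 15 genes with the largest difference in each direction, among called genes that carry a symbol and reach 5 FPKM in the line where they are higher. Black ticks are untreated Col-0, open circles mock-treated Col-0 of the separate hormone experiment (0 for M17 and not drawn), blue and red points the 2 lines. For EXT4, XTH11, EARLI1 and PTR3 the mock value lies well above untreated Col-0, for BAM5 and UF3GT well below it.

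The 15 largest differences toward BZR1-YFP included BZR1 itself and the defensin genes PDF1.2 and PDF1.2c, described further on. PCR1, a membrane protein known to raise cadmium tolerance, stood at 12.7 FPKM in Col-0, 31.8 in BZR1-YFP and 0.205 in BEH2-YFP, 155-fold apart (log2 -7.28 ± 0.73). PCC1, a pathogen-responsive gene, stood at 40.5, 36.7 and 2.50 FPKM, 14.7-fold apart (log2 -3.88 ± 0.37). SIB1, a sigma factor binding protein, stood at 13.4, 9.36 and 0.799 FPKM, 11.7-fold apart. For PCC1 and SIB1 the 2 other groups lay near each other and BEH2-YFP far below. The list went on with DIN11 (5.11 and 0.584 FPKM in BZR1-YFP and BEH2-YFP), NIT4, a nitrilase (18.7 and 3.86), BGL2, a glucanase also known as PR2 (93.7 and 21.6), HAK5, a potassium transporter induced by potassium shortage (8.39 and 1.91), CHAT, FT, GSTU4, COR15A, a cold-induced gene (21.2 and 5.87), and M17. Without the rescaling the calls of FT and M17 ended.

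The wild type was nearer to BZR1-YFP for nearly all called genes. On the log2 scale with 0.5 added, Col-0 lay nearer to BZR1-YFP for 498 of the 507 genes higher in BEH2-YFP (98.2%) and for 253 of the 272 higher in BZR1-YFP (93.0%). Over all members the share was 71.0%. The lines share the Col-0 libraries, and a gene with a large difference has to leave Col-0 in at least 1 of them. The median distance from Col-0 to BZR1-YFP was 0.30 for genes higher in BEH2-YFP and 0.25 for genes higher in BZR1-YFP, and the distance to BEH2-YFP was 1.61 and 1.27.

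A small set went the other way, with Col-0 nearer to BEH2-YFP. Under the same limits on symbol and level it held 14 called genes, BZR1 among them, and was drawn up after the values were seen. Of them 3 are known from phosphate shortage. IPS1, an RNA of phosphate starvation that is known as noncoding although the files class it with the protein-coding genes, stood at 14.5 FPKM in Col-0, 2.57 in BZR1-YFP and 13.9 in BEH2-YFP, 5.43-fold apart (log2 2.44 ± 0.47). PS2, a pyrophosphatase induced by low phosphate, stood at 26.7, 12.0 and 26.8 FPKM (log2 1.16 ± 0.28, adjusted p = 0.00235), and PEPC1, a phosphatase, at 18.7, 10.2 and 19.9 FPKM (adjusted p = 0.0371). In all 3, BZR1-YFP was low and the other groups lay close together, and the calls of PS2 and PEPC1, like those of PAD3 and GolS2 below, ended without the rescaling. Of the 7 members of the phosphate list, PS2 was the 1 called. SPX3, PHT1;4 and MGDC had the same order of the lines. SRG3 (35.7 FPKM in BZR1-YFP and 21.5 in BEH2-YFP), SQD2 (48.5 and 35.4) and SPX1 (67.6 and 51.3) had the opposite order. PAD3, the last enzyme of camalexin synthesis, was high in BZR1-YFP alone, with 6.6 FPKM in Col-0, 19.0 in BZR1-YFP and 7.63 in BEH2-YFP (log2 -1.32 ± 0.30, adjusted p = 0.00106). GolS2, a galactinol synthase, had the same shape at 6.66, 15.7 and 6.76 FPKM, and FT, the mobile flowering signal, stood at 3.3, 6.86 and 1.59 FPKM. Outside this set, CYP71A12, on the same indole glucosinolate and camalexin list as PAD3, was called higher in BEH2-YFP. It stood at 11.7 FPKM in Col-0, 16.6 in BZR1-YFP and 41.4 in BEH2-YFP (log2 1.32 ± 0.28), and its call ended without the rescaling too.

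On chromosome 3, 3 adjacent genes were low or listed at 0 in BZR1-YFP. AT3G55920, a cyclophilin-like isomerase (20743443 to 20745153, minus strand, TAIR10.1), stood at 19.5 FPKM in Col-0, 1.74 in BZR1-YFP and 19.1 in BEH2-YFP, 10.95-fold apart (log2 3.45 ± 0.35). Its neighbours AT3G55910, annotated to ADP-ribosylation factor GTPase activation, and AT3G55900, an F-box gene, were listed at 0 in BZR1-YFP, with 3.22 and 1.45 FPKM in Col-0 and 3.91 and 1.99 in BEH2-YFP. A listed 0 does not show that these 2 genes were silent, since genes used in every green cell are also listed at 0 in these tables. The next gene on that side, AT3G55890, stood at 5.75 FPKM in BZR1-YFP and 7.95 in BEH2-YFP (adjusted p = 0.973), and the one after it, SUE4, at 18.4 and 19.4. The 3 genes span 20742166 to 20745153. On their other side AT3G55930 was under the floor in both lines. The genes at 0 could not be tested, and this stretch was picked after its values were seen.

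The gene lists were read against the background of 2.31% and 1.28% of all genes tested. Jasmonate genes, which act in the wound and herbivore response, leaned toward BEH2-YFP: 4 of 23 were called higher there and 0 higher in BZR1-YFP, and the median log2 ratio of the list was 0.44. LOX2, a chloroplast lipoxygenase that starts jasmonate synthesis, stood at 189 FPKM in Col-0, 250 in BZR1-YFP and 988 in BEH2-YFP (3.95-fold, log2 1.98 ± 0.35). JAZ10, a repressor induced by jasmonate, stood at 3.09, 4.30 and 21.7 FPKM (5.05-fold, log2 2.34 ± 0.38). AOC1, an allene oxide cyclase, stood at 34.6, 67.9 and 144 FPKM (2.13-fold, adjusted p = 0.00184), and LOX3 at 6.17, 7.98 and 15.7 (1.96-fold, adjusted p = 0.0137). BZR1-YFP lay between Col-0 and BEH2-YFP in these 4, and the calls of AOC1 and LOX3 ended without the rescaling. The storage proteins VSP1 (135 and 171 FPKM in BZR1-YFP and BEH2-YFP) and VSP2 (292 and 237 FPKM), common markers of the same response, were not called.

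Defensins of the ethylene and jasmonate branch went against that lean. Of 8 tested genes of this list 1 was higher in BEH2-YFP and 3 higher in BZR1-YFP. PDF1.2 stood at 293 FPKM in Col-0, 52.6 in BZR1-YFP and 1.72 in BEH2-YFP (30.6-fold, log2 -4.94 ± 0.43), and PDF1.2c at 155, 20.8 and 0.177 (117-fold, log2 -6.88 ± 1.15). PDF1.3 stood at 86.5, 6.05 and 2.31 FPKM (adjusted p = 0.0478, not called without the rescaling). PDF1.2b was listed at 0 in BEH2-YFP and stood at 5.05 FPKM in BZR1-YFP and 48.0 in Col-0. All 4 were highest in Col-0 and lowest in BEH2-YFP. They are near-identical genes, and how reads were shared among them was not analysed here. In mock-treated Col-0 of the other experiment PDF1.2 stood at 3.74 FPKM and PDF1.2c at 0.896, far under untreated Col-0. PR4, a chitin-binding protein, was the member higher in BEH2-YFP, with 145, 126 and 1009 FPKM (7.98-fold, log2 3.0 ± 0.27), and HCHIB, a chitinase, at 0.981 FPKM in BZR1-YFP and 5.97 in BEH2-YFP, was not called (adjusted p = 0.48). THI2.1, a thionin, stood at 16.2 FPKM in BZR1-YFP and 4.21 in BEH2-YFP and was not called either (adjusted p = 0.0643).

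Salicylate genes were split, with PR1 apart from the others. Of 17 tested, 2 were higher in BEH2-YFP, PR1 and SARD1, a regulator of salicylate synthesis (4.35 and 9.67 FPKM, adjusted p = 0.0331). The 6 higher in BZR1-YFP were PCC1, BGL2, ALD1, WRKY70, PR5 and NIMIN1. ALD1, an enzyme of pipecolate synthesis in systemic resistance, stood at 1.67 FPKM in Col-0, 2.80 in BZR1-YFP and 0.415 in BEH2-YFP (6.75-fold, log2 -2.75 ± 0.56). PR5, a thaumatin-like protein, stood at 12.6, 10.3 and 3.82 FPKM (log2 -1.44 ± 0.36, adjusted p = 0.00337), and WRKY70 at 38.9, 27.4 and 13.3 FPKM (adjusted p = 0.0055). Without the rescaling 1 and 2 of these genes were called in the 2 directions, and the call of ALD1 was among those that ended. PR1, PR5 and BGL2 are commonly used side by side as markers of salicylate signalling. Here PR1 was 21.8-fold higher and the other 2 lower in BEH2-YFP. The synthesis enzyme EDS16 stood at 16.8 FPKM in BZR1-YFP and 9.90 in BEH2-YFP (adjusted p = 0.108), and the receptor NPR1 at 13 and 11.3.

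**Figure D3:**
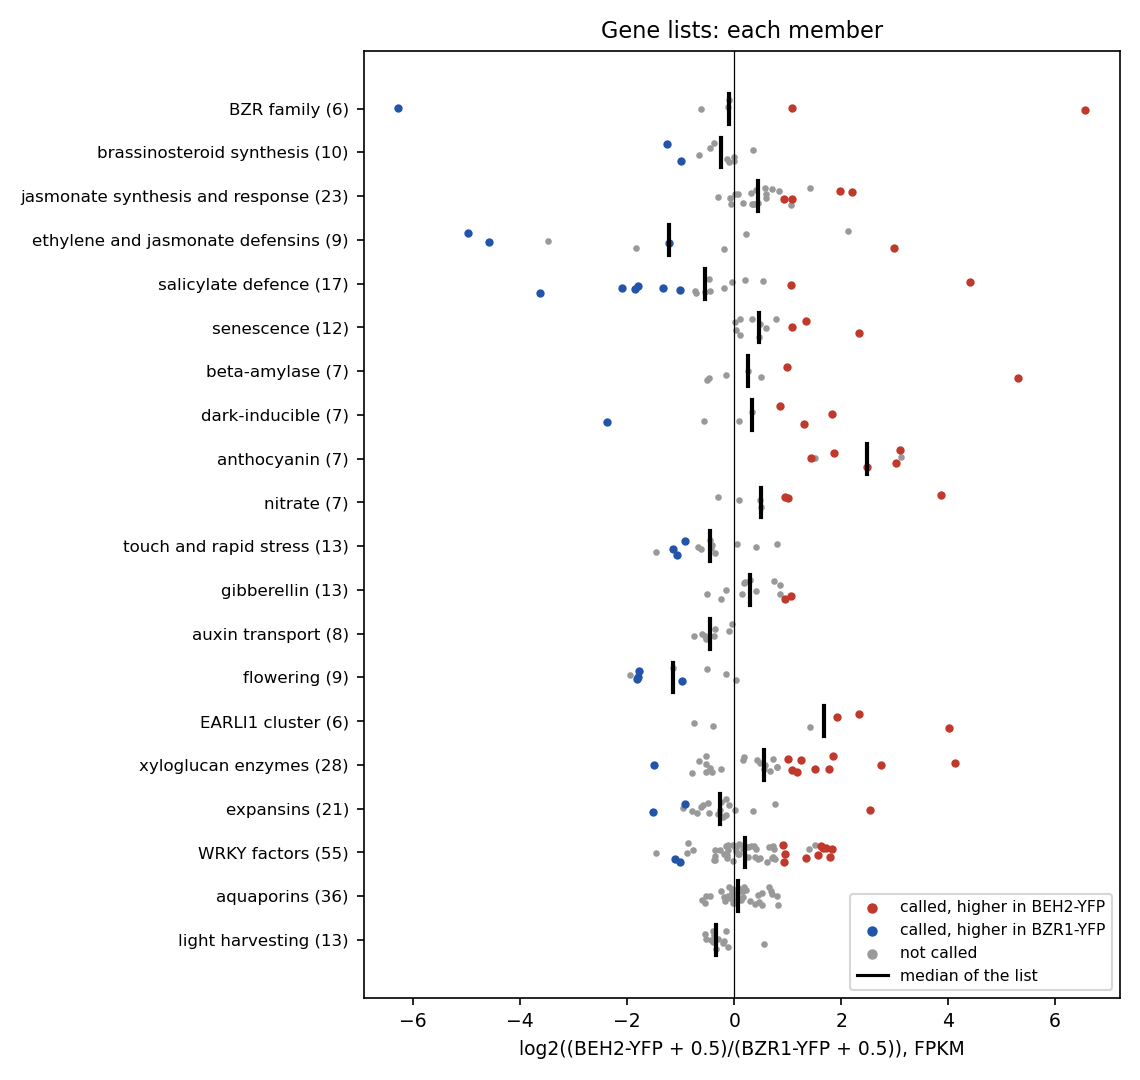
Log2 ratio of BEH2-YFP over BZR1-YFP (0.5 FPKM added) for every member of 20 of the gene lists, with the number of members in brackets. Points are genes, red and blue where called, and the black bar is the median of the list. All 7 anthocyanin genes lie to the right of 1 and the flowering genes mostly to the left of 0. The aquaporin list, drawn by symbol and holding some other genes, lies around 0 with none called.

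Of 7 anthocyanin genes, which make the red pigments of stressed leaves, 5 were called higher in BEH2-YFP and 0 higher in BZR1-YFP, or 3 and 0 without the rescaling, where the calls of PAP1 and TT7 ended. The list had a median log2 ratio of 2.49. DFR, the reductase at the head of the branch, stood at 2.59 FPKM in Col-0, 1.77 in BZR1-YFP and 18.0 in BEH2-YFP (10.2-fold, log2 3.35 ± 0.42). LDOX stood at 2.24, 1.84 and 12.6 FPKM (6.88-fold), the glycosyltransferase gene UF3GT at 0.77, 0.416 and 7.35 (17.7-fold), and PAP1, the MYB factor that switches the branch on, at 3.68, 3.88 and 15.4 (3.98-fold, log2 1.99 ± 0.41). GSTF12, a transferase that carries the pigment to the vacuole, stood at 2.1 FPKM in BZR1-YFP and 22.1 in BEH2-YFP with an error of 2.56 and was not called, nor was AT4G14090 at 2.32 and 7.51 FPKM (adjusted p = 0.0704). MYB90, the factor also known as PAP2, lay just under the floor with the opposite order, at 0.96 FPKM in BZR1-YFP and 0.234 in BEH2-YFP, and was not called (adjusted p = 0.219). Of 6 genes of the early flavonoid and flavonol steps 0 were called, and their median was -0.55. Mock-treated Col-0 stood at 0.042 FPKM for DFR, 0.054 for LDOX and 0.066 for PAP1, lower than untreated Col-0 and both lines.

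Senescence, sugar and starch genes also leaned toward BEH2-YFP. Of 12 senescence genes 3 were called higher in BEH2-YFP and 0 in BZR1-YFP. SAG13 stood at 16.3 FPKM in Col-0, 35.5 in BZR1-YFP and 180 in BEH2-YFP (5.07-fold, log2 2.34 ± 0.30), WRKY6 at 10.8, 13.9 and 36.1 (2.60-fold), and SAG21 at 127, 196 and 416 (2.13-fold, adjusted p = 0.00454). SAG21 stood at 423 FPKM in mock-treated Col-0, above BEH2-YFP. Of 7 beta-amylases, BAM5 and CT-BMY, the plastid enzyme of starch breakdown at night (42.3 and 83.9 FPKM, adjusted p = 0.0277), were higher in BEH2-YFP. Of 7 genes induced by darkness and sugar shortage 3 were higher in BEH2-YFP: ASN1, an asparagine synthetase (45.8 and 164 FPKM, log2 1.84 ± 0.25), DIN2 (9.93 and 25.3) and DIN10 (99.1 and 179). DIN11 of the same list was 8.75-fold lower (log2 -3.13 ± 0.44). Without the rescaling the calls of SAG21, CT-BMY, DIN2 and DIN10 ended.

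Wall genes differed by family. Of 28 xyloglucan endotransglucosylase/hydrolases, which cut and rejoin wall polymers, 9 were higher in BEH2-YFP and 1 higher in BZR1-YFP. XTR6 stood at 5.38 FPKM in Col-0, 8.72 in BZR1-YFP and 61.2 in BEH2-YFP (7.02-fold, log2 2.81 ± 0.32), and XTH4 at 110, 134 and 462 (3.44-fold, log2 1.78 ± 0.26). Expansins loosen the wall. Of 21 expansins and expansin-like genes 1 was higher in BEH2-YFP, the expansin-like gene EXLA1, and 2 were higher in BZR1-YFP. EXLA1 stood at 16.0 FPKM in BZR1-YFP and 94.6 in BEH2-YFP (5.93-fold, log2 2.57 ± 0.75, adjusted p = 0.0208), while EXPA11 stood at 31.1 and 10.5 and EXPA8 at 85.2 and 44.6. The calls of EXLA1 and EXPA8 ended without the rescaling, which left 5 xyloglucan enzymes higher in BEH2-YFP and 0 higher in BZR1-YFP. Of 36 genes with symbols like those of aquaporins 0 were called. Some of them are of other kinds, such as PIP5K1, PIP5K2, PIP5K5, SIP1 (AT1G55740) and NIP2 (AT2G17730). Families grouped by product name after the called genes had been seen are a description only: 10 of 61 genes with peroxidase in the product name (mainly of class III, with GPX2, TPX2 and DOX1 of other kinds among them and not called), 10 of 65 lipid transfer and 2S albumin-like proteins, 5 of 18 berberine family oxidases and 12 of 98 major facilitator transporters were higher in BEH2-YFP, against 4, 2, 0 and 2 higher in BZR1-YFP. Of 45 pectin lyase-like genes 1 and 5 were called in these directions, and of 25 nudix hydrolases 0 and 4. All the pectin lyase-like calls ended without the rescaling, and NUDT21 was the only nudix call left. Of the berberine family calls that of AT1G26390 alone was left, and some calls of the other product-name families ended too. The nudix gene NUDT21 stood at 39.9 FPKM in Col-0, 25.98 in BZR1-YFP and 7.83 in BEH2-YFP (3.32-fold, log2 -1.73 ± 0.28).

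Of 9 tested flowering regulators 4 were called, all higher in BZR1-YFP, and the list median was -1.14. Without the rescaling 0 of the 9 were called. FT was 4.32-fold apart (log2 -2.11 ± 0.50, adjusted p = 0.00166). AGL8, also known as FRUITFULL, stood at 4.99 FPKM in Col-0, 4.93 in BZR1-YFP and 1.07 in BEH2-YFP (4.61-fold, log2 -2.20 ± 0.45), and AGL20, also known as SOC1, at 62.2, 63.9 and 32.1 (1.99-fold, adjusted p = 0.00427). AP1, a floral identity factor, stood at 3.61, 1.63 and 0.12 FPKM (log2 -3.76 ± 0.88, adjusted p = 0.00123). The other 5 were not called: SEP1 stood at 3.27, 1.74 and 0.0838 FPKM, PI at 3.62, 2.74 and 0.97, AP3 at 3.19, 1.52 and 1.58, SEP3 at 15.2, 18.0 and 16.2, and TFL1, a repressor of flowering, at 4.07, 3.75 and 2.48. The 4 genes fixed as markers of floral organs (SEP1, PI, AP3 and AG, the last under the floor) are on the flowering list themselves and give no separate check.

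Other hormone and stress lists held few called genes. ACS6, an ACC synthase of ethylene synthesis, was higher in BZR1-YFP (14.2 and 7.28 FPKM). Of 13 gibberellin genes GID1B, a gibberellin receptor (9.0 and 19.4), and GA3, an early gibberellin enzyme (17.5 and 34.4), were higher in BEH2-YFP. GH3.3, which conjugates auxin, stood at 4.24 FPKM in Col-0, 16.1 in BZR1-YFP and 73.6 in BEH2-YFP (4.57-fold, log2 2.19 ± 0.30). Of 13 touch and rapid stress genes 3 were higher in BZR1-YFP, the zinc finger gene STZ (14.9 and 6.48 FPKM), ERF6 (8.92 and 4.01) and ERF5 (9.72 and 4.93, adjusted p = 0.0486). NCED3, the key enzyme of abscisic acid synthesis, stood at 3.59 and 1.27 FPKM (adjusted p = 0.00116), and HFR1, a bHLH factor of shade responses, at 8.49 and 2.35 (3.62-fold, log2 -1.86 ± 0.35). Of the calls in these lists, those of ACS6, GID1B, GA3, STZ, ERF6, ERF5 and NCED3 ended without the rescaling. Of 8 auxin transporters and 9 type-A response regulators of cytokinin 0 were called, with medians of -0.46 and -0.41.

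Among WRKY and NAC factors and TIR-type immune receptors more genes were called higher in BEH2-YFP, while receptor-like proteins were called in both directions. Of 55 WRKY factors 10 were higher in BEH2-YFP and 2 higher in BZR1-YFP; WRKY60 stood at 12.0 and 40.7 FPKM in BZR1-YFP and BEH2-YFP (3.40-fold), WRKY47 at 7.91 and 25.4, and WRKY48 at 4.01 and 15.4. Of 59 NAC factors, a family chosen after the called genes had been seen, 7 were higher in BEH2-YFP and 0 in BZR1-YFP, with NAC2 (AT3G15510; a second gene of that symbol, AT5G04410, was not called) at 9.89 and 33.1 FPKM (log2 1.74 ± 0.28). Among these NAC calls only that of NAC2 (AT3G15510) remained without the rescaling. Of 64 TIR-NBS-LRR immune receptors, again chosen afterwards, 5 were higher in BEH2-YFP and 0 in BZR1-YFP, and 0 were called without the rescaling. Of 41 receptor-like proteins, also chosen afterwards, 6 were higher in BEH2-YFP and 5 in BZR1-YFP, or 1 and 2 without the rescaling. RLP6 stood at 0.736 and 6.32 FPKM and RLP23, a receptor of a microbial peptide, at 4.17 and 0.408, each about as far from 0 in opposite directions (log2 3.103 ± 0.44 and -3.35 ± 0.51). Of the nitrate genes 3 of 7 were higher in BEH2-YFP, NRT1.8, the transceptor NRT1.1 (94.4 and 183 FPKM) and WR3, also known as NRT3.1, a partner protein of high-affinity nitrate transporters (16.3 and 33.4). NRT1.1 stood at 448 FPKM in mock-treated Col-0. Without the rescaling 0 of the 7 nitrate genes were called.

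Some called genes lay side by side. There were 42 runs of adjacent members called in 1 direction, 28 toward BEH2-YFP and 14 toward BZR1-YFP, and they held 88 of the 779 called genes (11.3%). Adjacent members were called the same way in 46 pairs and opposite ways in 17. The longest runs held 3 genes, and there were 4 of them. One is AZI1, EARLI1 and AT4G12490 on chromosome 4 (7401087 to 7410406), lipid transfer-like proteins of systemic immunity and cold: AZI1 stood at 33.9 FPKM in Col-0, 106 in BZR1-YFP and 537 in BEH2-YFP, and EARLI1 at 50.5, 121 and 1945. Another is GPT2, BGLU45 and BGLU46 on chromosome 1 (22824414 to 22838635), where BGLU45 stood at 2.13, 4.91 and 55.6 FPKM. The calls of AT4G12490, GPT2 and BGLU46 ended without the rescaling. Among the runs of 2 is PDF1.2 with PDF1.2c. Such neighbours include tandem copies, and reads shared among them were not analysed here. Chromosome 4 held 99 of 3007 members called higher in BEH2-YFP (3.29%), and the other nuclear chromosomes between 2.19% and 2.86%. Of 37 members encoded in the chloroplast 0 were called.

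The levels of the called genes in the hormone experiment give a view from other libraries. These tables were made in a separate run, so levels are set side by side without a test. Mock-treated Col-0 lay at least 2-fold above untreated Col-0 for 217 of the 507 genes higher in BEH2-YFP (42.8%) and for 6.47% of all members. It lay at least 2-fold below untreated Col-0 for 121 of the 272 genes higher in BZR1-YFP (44.5%) and for 5.93% of all members. The median log2 ratio of mock over untreated Col-0 was 0.72 in the first set, -0.84 in the second and 0.18 over all members. Mock-treated Col-0 reached or passed the BEH2-YFP level for 113 of the 507 genes and for 12727 of all 19585 members. It lay at or below that level for 92 of the 272 genes and for 6866 of all members. The called genes were chosen partly by their BEH2-YFP level, so these shares cannot be read against those of all members. PTR3 (43.7 against 44.9 FPKM) fell just short of the BEH2-YFP level and AZI1 (995 against 537) lay well above it. So where the lines differed, the 2 wild-type groups often differed in the same direction. Whether this bears on the difference between the lines was not tested.

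**Figure D4:**
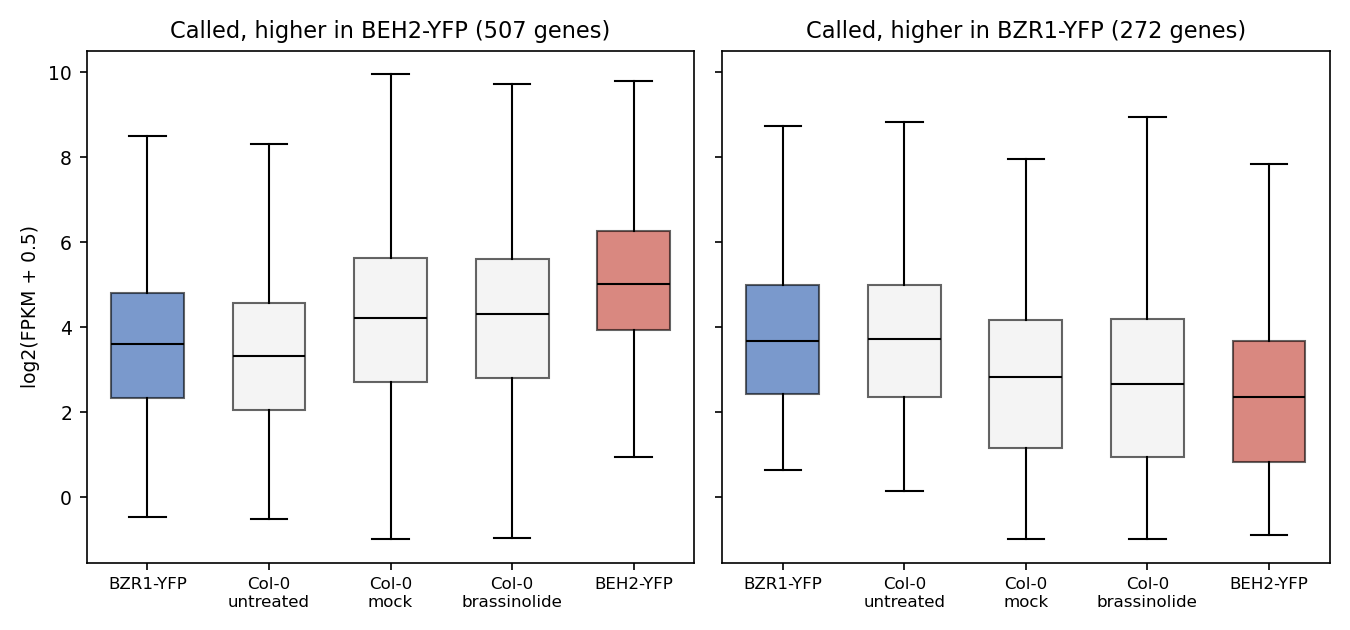
Level of the called genes in each of the 5 groups, as log2(FPKM + 0.5), for the 507 genes higher in BEH2-YFP (left) and the 272 higher in BZR1-YFP (right). Boxes span the quartiles over genes with the median as a line, and whiskers reach the furthest gene within 1.5 box lengths; the 2 lines are coloured because they chose the genes. Mock-treated and brassinolide-treated Col-0 lie between untreated Col-0 and BEH2-YFP in both panels.

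Both sets were also set beside the response to brassinolide itself, again without a test. In the authors' deposited table of brassinolide against mock, at a q-value under 0.05, 3.38% of 19436 tested members were higher and 2.64% lower with the hormone. Of 494 tested genes higher in BEH2-YFP, 84 (17.0%) were higher with brassinolide and 50 (10.1%) lower. Of 253 tested genes higher in BZR1-YFP, 19 (7.51%) were higher and 42 (16.6%) lower. PR1, PA2 and XTR6 were higher both in BEH2-YFP and with the hormone, while LOX2, GASA1 and PTR3 were higher in BEH2-YFP and lower with it. GASA1, a small cysteine-rich protein regulated by gibberellin, stood at 260 FPKM in BZR1-YFP and 1625 in BEH2-YFP, and at 862 with mock and 373 with brassinolide. DIN11, DWF4, CYP90D1, STZ and IAA29 (also not called between the lines without the rescaling) were lower both in BEH2-YFP and with brassinolide. PCR1 and EXPA11 were lower in BEH2-YFP and higher with it. The genes named here were picked after their values were seen.

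Promoter motifs were counted in both sets, without a test. Of 19540 member promoters of the window given above, 8.72% held CACGTG on either strand. The share was 5.33% (27 of 507) among genes higher in BEH2-YFP and 14.7% (40 of 272) among genes higher in BZR1-YFP. CGTGNG was found in 15.7% of all, 13.2% of the first set and 20.6% of the second, and CANNTG, the general E-box that includes CACGTG, in 62.4%, 62.7% and 70.2%. The median GC content of the windows was 32% over all members, 30% in the first set and 31.7% in the second. A match is a description of these letters and not a binding site. The windows shown for DIN11, NUDT21, DFR and UF3GT hold CACGTG in both directions of change, while those of DWF4, EARLI1 and PDF1.2 hold neither of the first 2 motifs.

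**Figure D5:**
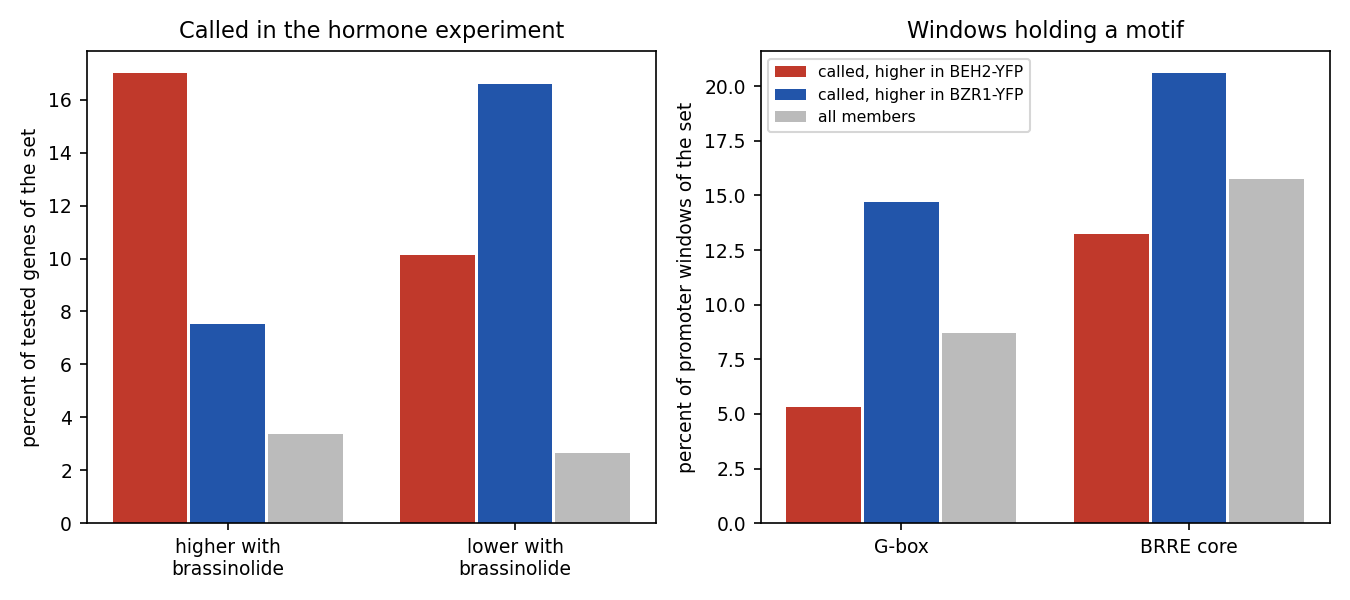
Left: percent of tested genes in each set that were called higher or lower with brassinolide in the authors' deposited table. Right: percent of promoter windows that hold the G-box (CACGTG) or the BRRE core (CGTGNG). Red bars are the 507 genes higher in BEH2-YFP, blue bars the 272 higher in BZR1-YFP, grey bars all members; the red bar is the highest for genes raised by brassinolide and the lowest for the G-box.

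The remaining genes bound what was measured. The test could not be applied to 66 members, of which 55 were at least 2-fold apart, 18 were listed at 0 in BEH2-YFP and 6 at 0 in BZR1-YFP. Among those at 0 are the chloroplast genes rpl36 and psbJ, AT2G11271, AT2G12205 and AT4G05071 at 0 in BEH2-YFP and AT1G27565, AT5G15533 and AT2G35850 at 0 in BZR1-YFP. A value of 0 is only what the tables list. In all, 272 members at least 2-fold apart were not called, these 55 among them. As a check of the tissue, the 5 green leaf markers stood between 3573 and 11773 FPKM in the 3 groups. Of the root markers 5 of 6 reached 1 FPKM, the 5 seed markers did not, and 0 markers of any of these lists were called. The errors of the leaf markers were wide, from 0.67 for CAB2 to 2.80 for CAB1. The lack of calls therefore does not show that the lines had equal shares of tissue. All 5 leaf markers and all 5 root markers lay lower in BEH2-YFP than in BZR1-YFP, by log2 ratios between -0.53 and -0.11 and between -0.53 and -0.03. The sixth root gene, IRT1, an iron transporter, stood under the floor at 0.775 FPKM in BZR1-YFP and 0.0302 in BEH2-YFP.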

How the data were processed

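Per the labels, whole seedlings were sequenced from a stranded mRNA kit in 2 libraries per group. Per the submitters' processing notes, the authors aligned reads with TopHat2 2.0.13 to TAIR10 and ran Cuffdiff 2.2.0; the sources used here do not give trimming, annotation version or strand setting. Per the file headers, the deposited tables hold 1 FPKM value per group, pooled by the authors over 2 libraries, so depth and the spread between libraries are unknown and p-values rest on the spread Cuffdiff modelled. The deposited log2 fold change is the authors' ratio of a line over Col-0, the statistic of the authors' test is a score with no fixed range, and the p-value and q-value come from the authors' same run. Whether the 2 libraries of a group came from separate cultures beyond their label as biological replicates is not stated, so the p-values may measure technical spread in part.

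The tables of each line against Col-0 were joined by gene. The planned model per library with limma needs library values and was not run; the test planned for group values was used. The deposited log2 fold change of BZR1-YFP was subtracted from that of BEH2-YFP. A standard error was obtained by dividing the size of the log2 fold change by that of the statistic and by k, a scaling constant: the median ratio, over genes with p between 0.0002 and 0.9, of the normal deviate that matches the deposited p-value to the statistic (1.42 in the BEH2-YFP table, 1.43 in the BZR1-YFP table). A two-sided normal test was applied, and p-values were adjusted by Benjamini and Hochberg over 22336 genes.

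Members and lists were chosen with earlier results of these data known. Of 56 lists, 36 were written gene by gene (336 genes, 329 matched by symbol and locus and 7 by locus alone) and 20 by name pattern; the 9 lists by product name were made after the called genes were seen, and the pattern for chloroplast genes was corrected to the identifiers of the files. Named were the 6 family members and 4 synthesis genes, the 15 largest differences per direction with a symbol and 5 FPKM, up to 4 called genes per list by adjusted p, and the 5 highest genes listed at 0 per line; others are said to be chosen afterwards, and list members outside the rule are named with values where a count of a list is spelled out. A result that falls under the rule but needs a withheld item is not reported here. Coordinates and promoters are of TAIR10.1. Software: SciPy 1.17.1, pandas 2.3.3 and numpy 2.4.6 under Python 3.11.15, with figures by matplotlib 3.10.9.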

Additional observations from a re-analysis of the deposited data

How the results depend on the processing

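The count of called genes followed the error model. With equal spread assumed in the 3 groups it was 2168 (1190 higher in BEH2-YFP, 978 higher in BZR1-YFP), and all 779 main calls were among them; with k set to 1 it was 211 (155 and 56), and 76 of 156 named calls remained, against 153 with upper quartile scaling. Under the other settings run (an adjusted p under 0.1, adjustment over members alone, a floor of 5 FPKM, at least 2-fold, centring on the median, upper quartile scaling, and, added after the data were seen, a call against Col-0 in either of the authors' tables) it lay between 594 and 990. Genes at least 2-fold higher in BZR1-YFP numbered 168 with a floor of 5 FPKM in place of 302; the other 2-fold counts stayed within 1.5 times of their main value under 2 other pseudocounts, no floor, 2 scalings and all gene classes. With equal spread, and with k set to 1 (tried on the lists after the data were seen), the receptor-like proteins had 1 more called gene higher in BZR1-YFP than in BEH2-YFP (net -1, where it was 1 the other way). No cause was tested. The scalings shifted log2 ratios by 0.0009 and 0.046. No paired analysis was possible because the tables hold 1 pooled value per group; for the same reason no library could be left out and depth limits cannot be given.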
